A study of Rattus norvegicus with 12 samples.

Results

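The 10 genes described here encode cytosolic translation factors and were chosen by name: the elongation factor genes Eef1a1, Eef1a2, Eef1b2, Eef1d, Eef1g and Eef2, the initiation factor genes Eif4a1, Eif4a2 and Eif4g2, and the poly(A)-binding protein gene Pabpc1. Of these, 9 had a row among the 30560 genes of the deposited count table, and all 9 passed the filter on low counts. Eef1d was not analysed here. The study sequenced the RNA of 12 mitochondrial isolates made from skeletal muscle of the rat, 3 in each of 4 groups. All came from the pooled hindlimb muscle homogenate of 1 wild-type male Wistar Kyoto rat aged 14 weeks (the series design names the gastrocnemius), and every preparation had been treated with RNase A. The group crude_RNase was prepared by differential centrifugation by its title and the series design (its source label names immunoprecipitation), IP_RNase by magnetic-bead immunoprecipitation, IP_RNase_ProK by the same capture with added proteinase K, and mitoplast_RNase held mitoplasts (mitochondria stripped of their outer membrane) derived from captured mitochondria. Libraries of crude mitochondria were made from 6.3 ng of RNA and all others from 40 ng, so isolation method and RNA input cannot be told apart. Because the libraries are aliquots of 1 animal's homogenate, every p-value below covers only the spread between libraries.

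Cytosolic ribosomes translate mRNAs of the nuclear genome, whereas the mitochondrial ribosome uses its own, nuclear-encoded factors. In the cytosol the eIF4F complex and poly(A)-binding protein prepare the mRNA for the small ribosomal subunit, eEF1A delivers aminoacyl-tRNA, the eEF1B complex recharges eEF1A with GTP, and eEF2 moves the ribosome along the message. Many mRNAs of this apparatus belong to the 5′ terminal oligopyrimidine class, whose transcripts begin with C followed by an uninterrupted stretch of pyrimidines and whose translation follows mTOR signalling.

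RefSeq start-site sequence was available for 8 of the 10 genes, and it is shown because the start of the transcript is the feature that defines this mRNA class. Each line gives 30 bases on the transcript strand, with the longest unbroken run of C and T that begins with C in capitals. The run was searched within 25 bases on either side of the annotated start in assembly GRCr8, on the transcript strand only, a search chosen after the data had been seen.
Eef1a1: gccttggacgttCTTTTTCgcaacgggttt
Eef1a2: gctcggtggttCTCTCCCTCgctcgggtac
Eef1b2: ggtcccggCCCTTTTTCTCCCTCagcgctg
Eef1g: acagccccaCCCCCTTTCTCTgcggaatca
Eef2: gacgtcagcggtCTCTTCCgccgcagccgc
Eif4a1: cgataggcgggcaCTCCgccctagattcta
Eif4a2: ccgtcccgctgtCTTTTCagtcgggcgctg
Eif4g2: gtgataagttcggCTTCagacacgcctcag

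The windows lie at chr8:88225053-88225082 (minus strand) for Eef1a1, chr3:188652638-188652667 (minus) for Eef1a2, chr9:72074085-72074114 (plus) for Eef1b2 and chr1:215289786-215289815 (plus) for Eef1g. Those of Eef2, Eif4a1, Eif4a2 and Eif4g2 lie on the minus strand at chr7:9189239-9189268, chr10:54888593-54888622, chr11:91275319-91275348 and chr1:174628259-174628288. The run was 15 bases long in Eef1b2, 12 in Eef1g, 9 in Eef1a2 and 7 in Eef2 and in Eef1a1, the 5 elongation factor genes with a window. It was shorter in the initiation factor genes, at 6 bases in Eif4a2 and 4 in Eif4a1 and Eif4g2. Of 21842 protein-coding promoters searched in the same way, 1.16% held a run at least as long as that of Eef1b2, 3.10% one as long as that of Eef1g, 9.76% one as long as that of Eef1a2 and 22.1% one of at least 7 bases. A run of at least 6 bases occurred in 34.0% and one of at least 4 bases in 73.8%. Counted from the annotated start, the run began at base 3 in Eef1b2 and at -1 in Eef1a1. It began at -18 in Eef2, -20 in Eef1g and -23 in Eef1a2. In Eif4a1, Eif4a2 and Eif4g2 it began at -7, -13 and -23. The length of a run thus does not place it at the start of the transcript. These runs are a description of the reference sequence, and transcript starts were not measured here.

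Library totals were 6583452 to 7123045 counts in crude_RNase and 3325430 to 4563254 in the 9 bead-derived libraries. Mitochondrial genes took 49.5% ± 7.18 (SD, n = 3) of counts in crude mitochondria. They took 6.51% ± 3.95 after capture, 2.75% ± 0.653 with added proteinase K and 3.28% ± 0.719 in mitoplasts. Because of this difference the scaling between libraries sets the level of every nuclear gene. Levels are given as CPM, counts per 1000000 counts of a library after edgeR's TMM scaling, which put the median log2 fold change of all 26483 tested genes at 0.01 in IP_RNase, 0.00 in IP_RNase_ProK and 0.00 in mitoplast_RNase, each against crude_RNase. A fold change is therefore read relative to the median gene. Scaling by library size moved that median to 1.03, 1.09 and 1.08, scaling on the 13 mitochondrial mRNAs moved it to 3.81, 4.95 and 4.93, and scaling on olfactory receptor genes moved it to -0.21, -0.12 and -0.11.

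Relative to the median gene, 8 of the 9 factors were lower in all 3 bead-derived groups than in crude mitochondria, and Eef1a1 alone passed no test on this scale. The largest fall was that of Eef2 (8.32-fold in IP_RNase), followed by Pabpc1 (4.50-fold), Eef1g (3.04-fold), Eef1b2 (2.78-fold) and Eif4a2 (2.20-fold), with Eef1a2, Eif4a1 and Eif4g2 between 1.60-fold and 1.72-fold. By edgeR's quasi-likelihood test with Benjamini-Hochberg adjustment over all genes, at an adjusted p under 0.05, 5.09% of all tested genes were lower and 1.26% higher in IP_RNase than in crude_RNase. The corresponding shares were 5.04% and 1.45% for IP_RNase_ProK and 4.54% and 0.997% for mitoplast_RNase. Under library size scaling the balance turned, with 0.714% of genes lower and 94.8% higher in IP_RNase. The count of higher genes in IP_RNase went from 335 to 145 without IP_RNase replicate 1 and to 506 without crude_RNase replicate 2. Against these backgrounds 8 of 9 factors were lower and 0 higher in each comparison, and DESeq2 called 8 lower in each as well. The median log2 fold change of the 9 was -1.14 in IP_RNase, -1.34 in IP_RNase_ProK and -1.29 in mitoplast_RNase. The 3 comparisons share the crude_RNase libraries, so their values are given side by side and are not independent of one another.

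**Figure D1:**
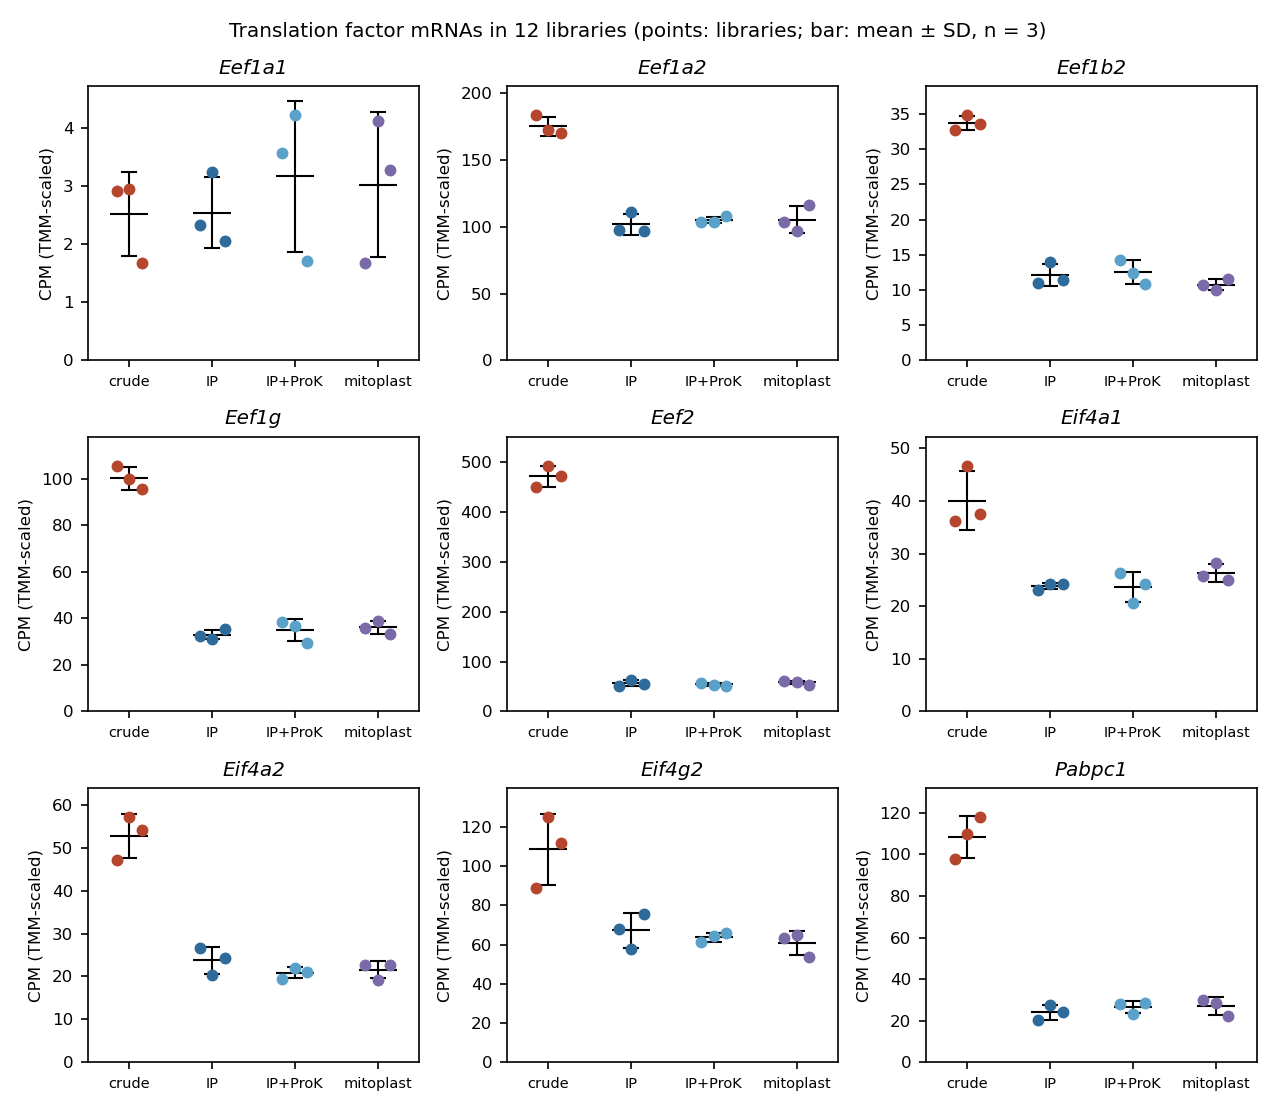
TMM-scaled CPM of the 9 genes in each of the 12 libraries, with the mean and SD of each group (n = 3); each panel has its own vertical axis starting at 0. In 8 panels the 3 crude libraries lie above all 9 bead-derived libraries, and in the Eef1a1 panel the groups overlap.

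Eef2 encodes the GTPase that drives translocation of the ribosome. Its level was 450.2, 491 and 473 CPM in the 3 crude libraries (1687 to 2007 counts). It was 51.3, 64.0 and 55.0 CPM in IP_RNase, 57.8, 53.7 and 50.6 CPM in IP_RNase_ProK and 61.0, 59.7 and 53.9 CPM in mitoplast_RNase, from 220 to 323 counts. All bead-derived libraries lay far below all crude ones, and among themselves the 3 bead-derived groups overlapped. The log2 fold change against crude_RNase was -3.06 ± 0.0830 (SE; edgeR adjusted p = 9.14e-36) in IP_RNase, -3.12 ± 0.0821 in IP_RNase_ProK and -3.02 ± 0.0815 in mitoplast_RNase. This fall held under library size scaling, at -2.02 in IP_RNase, and its sign turned only on the mitochondrial mRNA scale, where Eef2 stood at 0.82 against a median gene at 3.81. Left out one at a time, no library moved the IP_RNase value beyond -3.15 to -2.99.

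The paralogs Eef1a1 and Eef1a2 encode the factor that brings aminoacyl-tRNA to the ribosome. Eef1a2 is known as the form of adult skeletal muscle, heart and neurons, and Eef1a1 as the form of most other tissues. Eef1a2 stood at 183, 172 and 170.4 CPM in the crude libraries (608 to 818 counts). In the bead-derived libraries it stood at 97.9, 111 and 96.9 CPM in IP_RNase, 104, 104 and 108 CPM in IP_RNase_ProK and 103, 96.8 and 116 CPM in mitoplast_RNase. The ranges of crude and bead-derived libraries did not overlap, but the distance was small beside that of Eef2. Its log2 fold change was -0.79 ± 0.0790 in IP_RNase (edgeR adjusted p = 1.49e-11), -0.74 in IP_RNase_ProK and -0.74 in mitoplast_RNase. The sign turned to 0.24, 0.34 and 0.33 under library size scaling, values that lie below the median gene of that scale.

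Eef1a1 was counted 6 to 13 times in a crude library and 8 to 21 times in a bead-derived one, or 1.67 to 4.22 CPM over all 12. Its groups overlapped in every comparison. The log2 fold change against crude_RNase was -0.01 (95% interval -0.84 to 0.82) in IP_RNase, 0.32 (-0.46 to 1.09) in IP_RNase_ProK and 0.25 (-0.53 to 1.04) in mitoplast_RNase, with edgeR adjusted p of 0.993, 0.744 and 0.817. Under library size scaling Eef1a1 stood at 1.00, 1.39 and 1.31 and passed as higher in each (edgeR adjusted p = 0.0245, 0.00106 and 0.00205), where 94.8%, 95.3% and 95.3% of all genes were higher and the median gene lay at 1.03, 1.09 and 1.08. For a floor, olfactory receptor genes served as the background. Only 1.52% to 9.58% of 1117 such genes had fewer counts than Eef1a1 in a library. Eef1a1 thus stood at the low end of a class counted at a median of 30 to 49. RefSeq lists 20 rat pseudogenes named as copies of Eef1a1 and the count table has 0 rows with such names. No source used here says how reads with several matches were counted, so the Eef1a1 counts are uncertain, and the part of such copies in them was not tested.

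The ratio of the 2 paralogs within a library needs no scaling. Eef1a2 had 58.5 to 101 times the counts of Eef1a1 in crude libraries and 23.5 to 63.3 times in bead-derived ones. The mean log2 ratio was 6.17 ± 0.430 (SD, n = 3) in crude mitochondria, 5.35 ± 0.230 after capture, 5.16 ± 0.727 with added proteinase K and 5.22 ± 0.702 in mitoplasts. The ratios of IP_RNase (34.3 to 47.0) lay below all crude ratios, while those of the other two groups overlapped with the crude ones. Two-sided exact permutation tests of the 3 differences from crude_RNase gave p of 0.1, 0.3 and 0.2 (adjusted over the 12 ratio tests made, 0.3, 0.514 and 0.48), where 0.1 is the smallest that 3 libraries against 3 allow. Transcript lengths were not used, so a count ratio is not a ratio of molecules. The ratio also rests on the 6 to 21 counts of Eef1a1, which are uncertain. The part of background counts and of read handling in it was not tested.

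Eef1b2 and Eef1g encode subunits of eEF1B, the first with nucleotide exchange activity and the second a scaffold. Eef1g stood at 105, 100.1 and 95.6 CPM in crude libraries and between 29.5 and 39.1 CPM in all 9 bead-derived libraries. Eef1b2 stood at 32.7, 34.8 and 33.6 CPM in crude libraries and between 10.0 and 14.3 CPM in the others. Neither gene's crude range touched its bead-derived range, and the 2 subunits fell by similar amounts. The log2 fold changes of Eef1g were -1.60 ± 0.0946 in IP_RNase (edgeR adjusted p = 1.82e-20), -1.52 in IP_RNase_ProK and -1.47 in mitoplast_RNase. Those of Eef1b2 were -1.48 ± 0.147 (edgeR adjusted p = 1.04e-11), -1.41 and -1.65. Both remained below 0 under library size scaling, at -0.58 and -0.45 in IP_RNase, and stood above 0, at 2.19 and 2.36, only on the mitochondrial mRNA scale. In bead-derived libraries Eef1b2 had 47 to 80 counts, more than 53.4% to 74.9% of olfactory receptor genes, which places it within the range of that background. Pabpc1, Eif4a1 and Eif4a2, described next, exceeded 83.4% to 95.6% of these genes in bead-derived libraries. Eef2, Eef1a2 and Eif4g2 exceeded at least 99.3%. These ranks, like that of Eef1a1, compare raw counts without transcript lengths, so they are not ranks of molecules.

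Eif4a1 and Eif4a2 encode the paralogous RNA helicases of the cap-binding complex eIF4F. Eif4a2 stood at 47.1, 57.0 and 54.1 CPM in crude libraries and at 19.3 to 26.6 CPM in bead-derived ones. Eif4a1 stood at 36.1, 46.6 and 37.6 CPM in crude libraries and at 20.6 to 28.3 CPM in bead-derived ones. Crude and bead-derived ranges were separate for both genes, with a wider gap for Eif4a2. The log2 fold change of Eif4a2 was -1.14 ± 0.116 in IP_RNase (edgeR adjusted p = 2.34e-11), -1.34 in IP_RNase_ProK and -1.29 in mitoplast_RNase. That of Eif4a1 was -0.74 ± 0.122 (edgeR adjusted p = 7.60e-06), -0.75 and -0.60. Under library size scaling Eif4a1 turned to 0.29, 0.34 and 0.48, while Eif4a2 kept its sign in IP_RNase at -0.11 without passing the threshold (edgeR adjusted p = 0.438).

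Counts of Eif4a2 were 1.22 to 1.44 times those of Eif4a1 in crude libraries, and 0.681 to 1.15 times in bead-derived ones. The mean log2 ratio was 0.40 ± 0.118 (SD, n = 3) in crude mitochondria, -0.01 ± 0.223 after capture, -0.18 ± 0.261 with added proteinase K and -0.29 ± 0.228 in mitoplasts. No bead-derived library reached the lowest crude ratio. The part of background counts in this ratio was not tested. Two-sided exact permutation tests gave p = 0.1 for each of the 3 differences from crude_RNase (-0.41, -0.58 and -0.69), the smallest value possible, and 0.3 after adjustment over 12 tests, so the design could not bring this shift past 0.05.

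Eif4g2 encodes a relative of the scaffold eIF4G that lacks the site for the cap-binding protein eIF4E and serves initiation on selected mRNAs. It stood at 89.0, 125 and 112 CPM in crude libraries. In bead-derived libraries it stood at 68.1, 57.7 and 75.8 CPM in IP_RNase, 61.3, 64.1 and 65.8 CPM in IP_RNase_ProK and 63.3, 65.0 and 53.9 CPM in mitoplast_RNase. The gap between the lowest crude and the highest bead-derived library was narrow, and the crude libraries spread widely. The log2 fold change was -0.68 ± 0.0970 in IP_RNase (edgeR adjusted p = 3.26e-07), -0.76 in IP_RNase_ProK and -0.83 in mitoplast_RNase. Under library size scaling it turned to 0.36, 0.34 and 0.26.

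Pabpc1, whose product coats poly(A) tails and contacts eIF4G, stood at 97.8, 109.8 and 118 CPM in crude libraries. It stood at 20.5, 27.6 and 24.0 CPM in IP_RNase, 28.1, 23.1 and 28.6 CPM in IP_RNase_ProK and 30.1, 28.7 and 22.1 CPM in mitoplast_RNase. No bead-derived library came near a crude one. The log2 fold change was -2.17 ± 0.106 in IP_RNase (edgeR adjusted p = 5.61e-24), -2.02 in IP_RNase_ProK and -2.0 in mitoplast_RNase. It remained negative under library size scaling, at -1.14, -0.93 and -0.92.

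**Figure D2:**
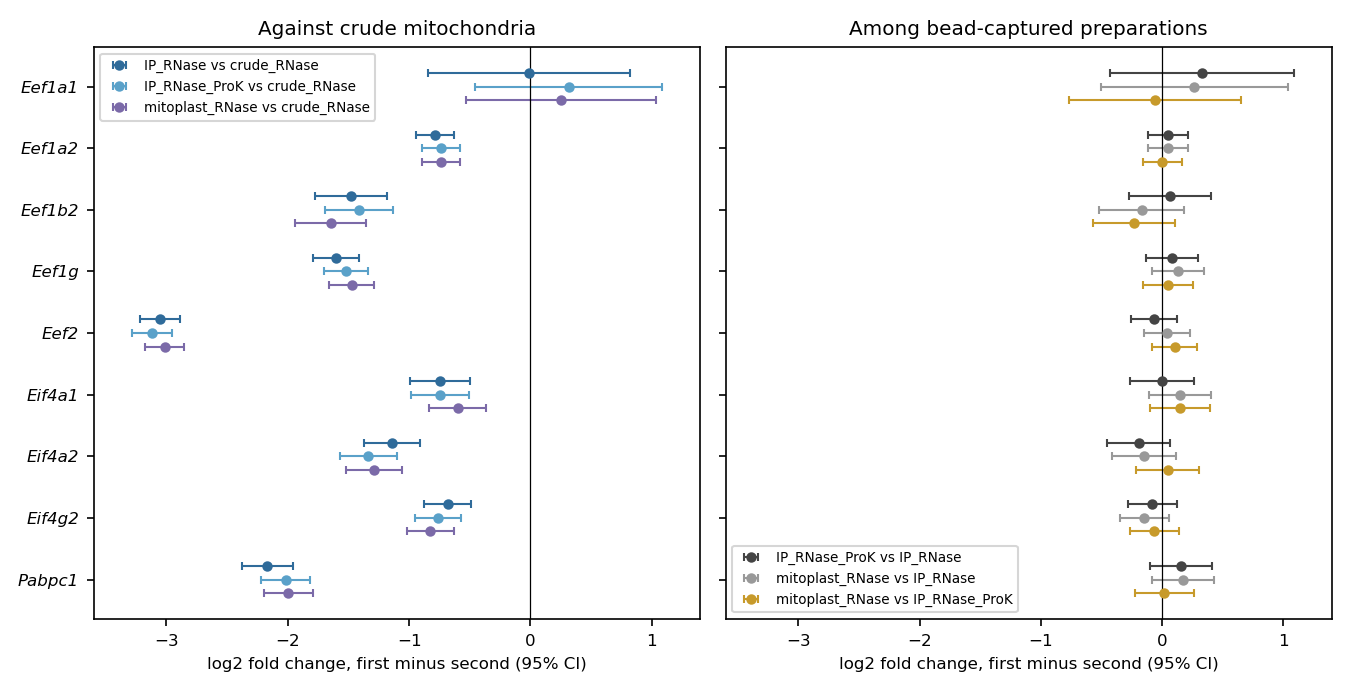
Log2 fold changes of the 9 genes with 95% intervals (TMM scaling), on the left for each bead-derived group against crude mitochondria and on the right among the bead-derived groups. On the left all intervals but those of Eef1a1 lie below 0, from -3.29 to -0.36, a sign that depends on the scaling for part of the genes (library size, mitochondrial mRNA); on the right every interval holds 0.

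With TMM scaling, none of the 9 genes differed detectably after proteinase K or removal of the outer membrane. Of all tested genes, 0.14% differed between IP_RNase_ProK and IP_RNase, 0.155% between mitoplast_RNase and IP_RNase and 0.0% between mitoplast_RNase and IP_RNase_ProK. Without crude_RNase replicate 1 the first 2 of these shares, 37 and 41 genes, became 88 and 78 genes. By edgeR, 0 of the 9 factors passed in each of these comparisons, and 0 of the 27 values had an unadjusted p under 0.05 (the lowest was 0.142). DESeq2 called 0 as well, although it gave an adjusted p to only 3 of the 9 genes in each comparison with IP_RNase. For the 8 genes other than Eef1a1, the log2 fold changes lay between -0.23 (Eef1b2, mitoplast_RNase against IP_RNase_ProK) and 0.17 (Pabpc1, mitoplast_RNase against IP_RNase), and their 95% intervals lay within -0.57 and 0.43. For Eef1a1 the intervals reached from -0.77 to 1.09. For Eef2 the interval of the mitoplast_RNase against IP_RNase difference was -0.15 to 0.23. On the mitochondrial mRNA scale, where the median gene itself lay at about 1.1 in the comparisons with IP_RNase and 94.0% and 93.4% of all genes passed as higher, all 9 factors passed as higher in both (Eef2 at 1.03 and 1.10).

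The make-up of the factor counts within a library, which no scaling touches, also differed between crude and bead-derived preparations. No background was subtracted. Olfactory receptor genes had a median of 30 to 34 counts in crude libraries and 37 to 49 in bead-derived ones. The part of such background in the shares and ratios below was not tested. Eef2 held 43.1% ± 0.0466 (SD, n = 3) of the summed counts of the 9 genes in crude_RNase and 14.9% to 18.1% in bead-derived libraries. Eef1a2 held 16.1% in crude_RNase and 27.6% to 34.0% in the others. Eif4g2 held 9.88% in crude_RNase and 15.8% to 21.7% in the others. Eef2 was the leading share in every crude library, and Eef1a2 was the leading share in every bead-derived library. Eef2 had 2.45 to 2.85 times the counts of Eef1a2 in crude libraries and 0.463 to 0.617 times in bead-derived ones, and this ratio was picked after its values were seen and is given without a test. Eef1g held a like share throughout, 9.20% in crude_RNase and 8.66% to 11.1% in the others. Pabpc1 went from 9.91% to between 6.16% and 8.49%, whereas Eif4a1 went from 3.66% to between 6.05% and 8.06%. Together the 9 genes made up 0.0628% ± 0.00699 (SD, n = 3) of a crude library's counts. Their summed share was 0.0404% ± 0.00199 after capture, 0.0420% ± 0.00108 with added proteinase K and 0.0422% ± 0.000585 in mitoplasts. Taken over non-mitochondrial counts alone, the share was 0.125% in crude mitochondria and 0.0433%, 0.0432% and 0.0437% in the bead-derived groups.

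**Figure D3:**
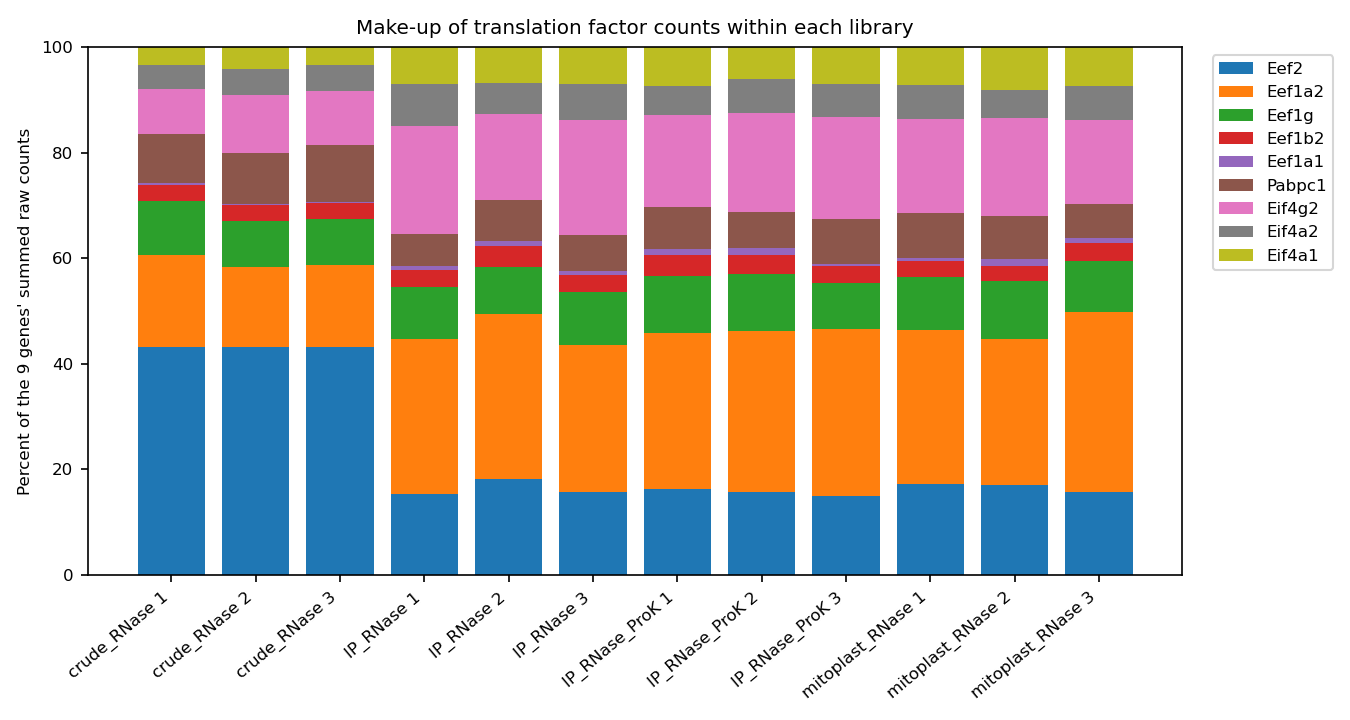
Share of each gene in the summed raw counts of the 9 genes, 1 stacked bar per library. The Eef2 segment takes 43.1% in crude_RNase and at most 18.1% in the other 9 libraries, where the Eef1a2 segment takes 27.6% to 34.0%.

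A scaling shifts all genes of a library by about the same amount, so distances from the median gene stay nearly the same by construction under the 5 scalings used (TMM, RLE, library size, mitochondrial mRNA and olfactory receptor genes). In IP_RNase against crude_RNase, Eef2 lay -3.06 to -3.00 from the median gene, Pabpc1 -2.18 to -2.12, Eef1a2 -0.79 to -0.75 and Eif4g2 -0.69 to -0.68. Eef1a1 lay -0.08 to -0.02 from it. The position against 0 moved with the scale. Under library size scaling 4 of the 9 genes (Eef2, Pabpc1, Eef1g and Eef1b2) were lower in each comparison, where 0.714%, 0.699% and 0.676% of all genes were lower. On that scale 2, 4 and 4 of the 9 were higher, against 94.8%, 95.3% and 95.3% of all genes. On the mitochondrial mRNA scale 0 were lower and 9 higher in each, where 99.8%, 99.9% and 99.9% of all genes were higher.

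**Figure D4:**
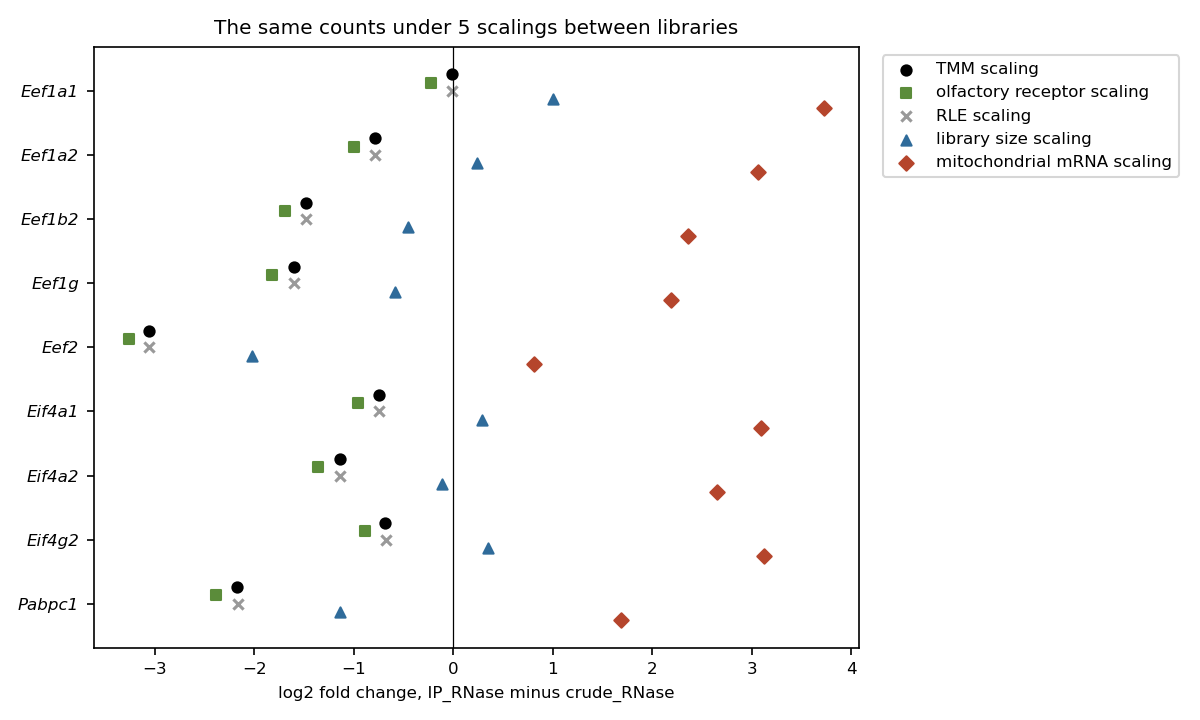
Log2 fold change of the 9 genes in IP_RNase against crude_RNase under 5 scalings of the same counts. The points of a scaling shift together; Eef2 is lowest in each, at -3.06 with TMM, -2.02 with library size and 0.82 with mitochondrial mRNA scaling.

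RNA of muscle fibres and of connective tissue moved in the same direction as the factors. Relative to the median gene, all 14 muscle fibre markers in the table (of 16 listed) were lower in each bead-derived group by edgeR. The shares of all tested genes lower were 5.09%, 5.04% and 4.54%. The medians of the markers were -3.34, -3.37 and -3.25. Their summed level was 6887 to 8669 CPM in crude libraries and 648 to 844 CPM in the others. None of them was at 0 in any group. The 16 matrix and fibroblast genes summed to 3060 to 3160 CPM in crude libraries and 1335 to 1393 CPM in the others. Endothelial markers summed to 517 to 545 CPM in crude and 519 to 541 CPM in bead-derived libraries, macrophage and leukocyte markers to 515 to 546 and 460 to 484 CPM, and erythroid markers (1 of 6 at 0) to 194 to 212 and 175 to 195 CPM. The part of carried-over muscle fibre or matrix RNA in the values of the translation factors was not tested. In such bulk preparations fewer fragments of a cell type and less RNA per cell cannot be told apart.

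Similarity across the 12 libraries was described for 4 factors by Pearson's r of log2 CPM. The genes compared were the 12264 with a mean of at least 100 counts. For Eef2, Eef1a2 and Eif4g2, r rests largely on the gap between the crude and the other libraries. The genes nearest to Eef2 were Tnni2 (r = 0.998) and Tpm1 (0.998), which encode sarcomere proteins, and Fth1 (0.997), the ferritin heavy chain. Those nearest to Eef1a2 were Zc3h10 (0.983) and the ribosomal protein genes Rps15 (0.982) and Rpl29 (0.982). Those nearest to Eif4g2 were Ndufs1 (0.975), a subunit of respiratory complex I, AY172581.2 (0.972) and the mitochondrially encoded Mt-nd6 (0.964). For Eef1a1, which itself had a mean of under 100 counts, the nearest were P2rx4 (0.863), Cd248 (0.846) and Msantd2 (0.843). Eef1a1 had no such gap, and these genes had log2 fold changes of 0.01, -0.005 and 0.06 in IP_RNase against crude_RNase. Their r rests on differences between libraries at 6 to 21 counts of Eef1a1. It is the highest of 12264 values and is not read as likeness. Among the factors with a mean of at least 100 counts, Eef2 varied most like Pabpc1 (0.988) and Eef1g (0.986). Eef1a2 varied most like Eef2 (0.970) and Eif4g2 most like Eif4a2 (0.937). Eef1a1 gave values of -0.29 (Eif4g2) to -0.07 (Eef1g) with these factors. Eef1b2, also with a mean of under 100 counts, was not among the genes compared.

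The median change of other cytosolic translation factors was smaller than that of the 9. Both sets were chosen with earlier results known, and the others were not ranked against the olfactory receptor background. The part of their level in this difference was not tested. Of 61 listed, 55 were in the table and tested (Eif1ax, Eif2s3, Eif3e, Eif4b, Eif5 and Paip2 were not analysed here). By edgeR 13 were lower in IP_RNase, 12 in IP_RNase_ProK and 17 in mitoplast_RNase than in crude_RNase, and 0 were higher, with medians of -0.22, -0.21 and -0.23. The shares of all genes lower were 5.09%, 5.04% and 4.54%. Without crude_RNase replicate 1 the IP_RNase_ProK count was 18. With olfactory receptor scaling the counts were 37, 20 and 22, where 16.9%, 7.49% and 6.64% of all genes were lower. The lowest in IP_RNase were Eif5a (-1.32 ± 0.146, edgeR adjusted p = 3.48e-10), whose product eases peptide bond formation, and Eif1 (-1.31 ± 0.131), whose product guards start codon choice. They were followed by Pabpc4 (-0.77 ± 0.0862), Eif3f (-0.70 ± 0.115), Eif2s2 (-0.65 ± 0.135) and Eif4h (-0.63 ± 0.0989), which encode a second poly(A)-binding protein, subunits of eIF3 and eIF2, and a cofactor of eIF4A. Eif1, Eif5a and Eif3f were also the lowest in IP_RNase_ProK (-1.24, -1.03 and -0.84) and in mitoplast_RNase (-1.18, -1.0 and -0.77). Under library size scaling none of the 55 was lower and 52, 52 and 53 were higher, near the 94.8%, 95.3% and 95.3% of all genes, so these falls too are relative to the median gene.

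By complex, 6, 5 and 7 of 12 eIF3 subunit genes were lower in the 3 comparisons, with medians of -0.35, -0.33 and -0.38, where 5.09%, 5.04% and 4.54% of all genes were lower. Among the 5 eIF2B genes, which encode the exchange factor for eIF2, 0, 0 and 1 were lower. The 4 methyltransferase genes that modify eEF1A gave 0 lower and 0 higher by edgeR in all 3, with medians of 0.11, 0.08 and 0.16. At those shares of all genes, families of 4 or 5 members are too small for a count near 0 to be read as a difference from the rest. Among the bead-derived groups 0 of the 55 passed by edgeR or by DESeq2, and 5, 5 and 0 had an unadjusted edgeR p under 0.05. In the bead-derived comparisons with IP_RNase, however, DESeq2 gave an adjusted p to only 12 of the 55.

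The factors of the mitochondrial ribosome's own system, all encoded in the nucleus, stayed closer to the median gene. They summed to 324 to 354 CPM in crude and 314 to 344 CPM in bead-derived libraries. They were not ranked against the olfactory receptor background, and the part of their level in this was not tested. Of 12 measured, 1 was lower and 1 higher in IP_RNase than in crude_RNase, with a median of 0.01. Of all tested genes, 5.09%, 5.04% and 4.54% were lower in IP_RNase, IP_RNase_ProK and mitoplast_RNase, and 1.26%, 1.45% and 0.997% were higher. At those shares a count of 0 or 1 among 12 is not read as a difference from the rest. Tufm, the mitochondrial counterpart of eEF1A, went from 35.5 ± 4.74 to 26.6 ± 1.95 CPM (SD, n = 3; log2 fold change -0.40 ± 0.120, edgeR adjusted p = 0.0277). Guf1, a mitochondrial GTPase related to bacterial LepA, went from 30.2 ± 1.74 to 38.0 ± 1.63 CPM (0.34 ± 0.109, edgeR adjusted p = 0.0477). Mrrf, the ribosome recycling factor, gave -0.33 ± 0.118 and did not pass (edgeR adjusted p = 0.0866). The Tufm call ended with DESeq2 (adjusted p = 0.0989) and without IP_RNase replicate 1, IP_RNase replicate 2 or crude_RNase replicate 3 (edgeR adjusted p = 0.139, 0.0933 and 0.215). The Guf1 call ended in DESeq2 (adjusted p = 0.162) and in each of the 12 fits that left out a library. In IP_RNase_ProK 0 of the 12 passed by edgeR or DESeq2, with 3 at an unadjusted edgeR p under 0.05, and in mitoplast_RNase only Tufm did (-0.51 ± 0.119, edgeR adjusted p = 0.00265), a call lost without crude_RNase replicate 3 (edgeR adjusted p = 0.0623). Among the bead-derived groups 0 passed by either tool, with 1, 2 and 1 at an unadjusted edgeR p under 0.05. In the bead-derived comparisons with IP_RNase, however, DESeq2 gave an adjusted p to only 1 of the 12.

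**Figure D5:**
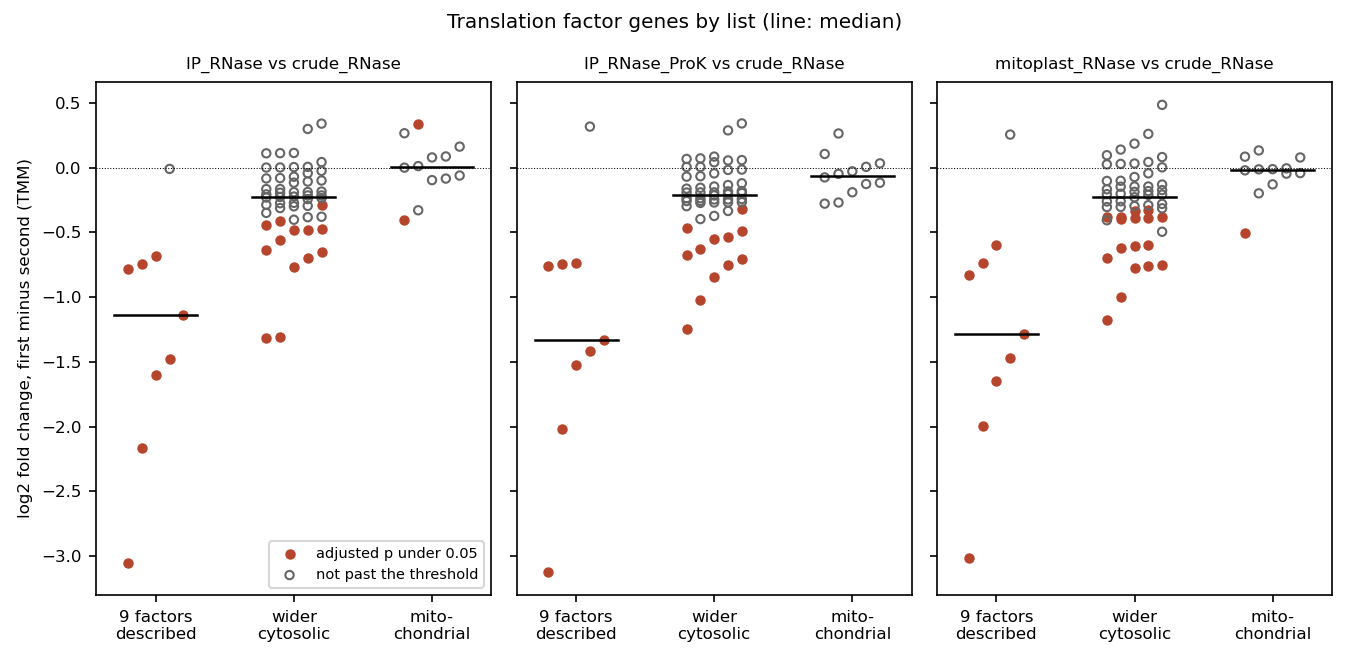
Log2 fold change (TMM scaling) of each gene against crude_RNase for the 9 factors, the 55 other cytosolic factors and the 12 mitochondrial factors, with the median as a line and genes past the threshold filled. Medians are -1.14, -0.22 and 0.01 in IP_RNase; under library size and mitochondrial mRNA scaling all points shift upward together.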

How the data were processed

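Gene counts were used as deposited by the authors: raw whole numbers for each Ensembl gene and library. Per the submitters' processing notes, the authors used FastQC 0.74, cutadapt 4.6, STAR 2.7.11a and HTSeq with the mRatBN7.2 assembly. No source used here gives the annotation release, the strand setting or the handling of multiply matching reads. Libraries were grouped by title, since the source label of crude mitochondria names immunoprecipitation while title and design do not. The table held 0 columns of other samples, and 6515 of its genes have no name. None of the 12 pairs of libraries within a group agreed within sampling noise (chi-square per degree of freedom of at least 1.24).

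Counts were tested with edgeR 4.0.16 in R 4.3.3 (quasi-likelihood F test, TMM, filterByExpr with a minimum count of 10, 26483 genes kept, 12 libraries in 1 model of 4 groups), with Benjamini-Hochberg adjustment over all genes and a threshold of 0.05. The SE is the absolute log2 fold change divided by the square root of F. CPM used effective library sizes, and log2 CPM a prior count of 2. Count ratios were compared by exact permutation tests in SciPy 1.17.1. The fit was tested on simulated data. Alternatives included DESeq2 1.42.0.

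Members, lists and alternatives were chosen with earlier results of these data known. Named from the wider list were up to 6 genes per direction with the largest change in IP_RNase against crude_RNase and 3 in each other comparison. From the mitochondrial list the 3 with the smallest p in IP_RNase against crude_RNase were named, and the 3 most similar genes were taken for 4 factors. Start-site sequences are from RefSeq (GRCr8). Gene positions of the count table were not used.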

Additional observations from a re-analysis of the deposited data

How the results depend on the processing

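Counting depth limits Eef1a1 (6 to 21 counts), and the choice of scaling limits every direction against crude mitochondria. Of 9 factors, 8 were lower in each of those 3 comparisons under RLE and olfactory receptor scaling, DESeq2 and no filter on low counts. The same held with 2 groups only and each library left out. Across these settings 0 passed among the bead-derived groups. All genes lower were 5.06%, 4.99% and 4.49% with RLE, and 16.9%, 7.49% and 6.64% with olfactory receptor scaling. They were 4.12%, 4.23% and 3.45% with DESeq2, 4.5%, 4.44% and 3.94% without the filter and 4.21%, 4.25% and 3.88% with 2 groups only. With a library left out, 1053 to 1460, 1005 to 1598 and 975 to 1473 genes were lower. The deviations of same-numbered libraries were little correlated (-0.102 to 0.0665 over 18 pairs). Of 12 libraries, 6 matched their own number best. Pairing by replicate number was not evident from these values. A replicate block gave 8, 8 and 8 factors lower and 0 among the bead-derived groups. It gave 13, 12 and 18 lower of the wider list and 1, 0 and 1 of the mitochondrial list. With the block 4.96%, 4.94% and 4.41% of all genes were lower. It ended the call of Guf1 (edgeR adjusted p = 0.0648).

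Library size scaling gave 4, 4 and 4 factors lower (2, 4 and 4 higher), 0, 0 and 0 of the wider list and 0 of the mitochondrial list. Of all genes 0.714%, 0.699% and 0.676% were lower and 94.8%, 95.3% and 95.3% higher on this scale. Library size is the scaling meant in the rest of this paragraph. It reversed Eef1a1 to 1.00 in IP_RNase (past the threshold as higher there and, at 1.39 and 1.31, in the other two), Eef1a2 to 0.24, 0.34 and 0.33 (IP_RNase, IP_RNase_ProK, mitoplast_RNase), Eif4a1 to 0.29, 0.34 and 0.48, and Eif4g2 to 0.36, 0.34 and 0.26. It also reversed, in IP_RNase, Pabpc4 to 0.26, Eif3f to 0.33, Eif2s2 to 0.38, Eif4h to 0.38, Tufm to 0.62 and Mrrf to 0.70. In IP_RNase_ProK it reversed Eif5a to 0.0595 and Eif3f to 0.24, and in mitoplast_RNase Eif5a to 0.0762, Eif3f to 0.30 and Tufm to 0.57. Reversed means here that the sign turned, whether or not the value passed the threshold. Only 2 factors passed as higher in IP_RNase, so some reversed values did not pass.

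Mitochondrial mRNA scaling, on which the median of all genes rises, gave 0 lower in all 3 lists. In IP_RNase against crude it gave Eef1a1 3.73, Eef1a2 3.07, Eef1b2 2.36, Eef1g 2.19, Eef2 0.82, Eif4a1 3.09, Eif4a2 2.66, Eif4g2 3.13, Pabpc1 1.69, Eif5a 2.51, Eif1 2.53, Pabpc4 3.06, Eif3f 3.07, Eif2s2 3.19, Eif4h 3.15, Tufm 3.40 and Mrrf 3.49. In IP_RNase_ProK it gave Eef1a2 4.20, Eef1b2 3.55, Eef1g 3.43, Eef2 1.85, Eif4a1 4.22, Eif4a2 3.63, Eif4g2 4.22, Pabpc1 2.94, Eif1 3.70, Eif5a 3.94 and Eif3f 4.12. In mitoplast_RNase it gave Eef1a2 4.20, Eef1b2 3.30, Eef1g 3.44, Eef2 1.92, Eif4a1 4.35, Eif4a2 3.67, Eif4g2 4.13, Pabpc1 2.93, Eif1 3.77, Eif5a 3.94, Eif3f 4.17 and Tufm 4.44. In each bead-derived comparison with IP_RNase it called 9 factors, 55 of the wider list and 12 of the mitochondrial list, where 94.0% and 93.4% of all genes were higher. Against IP_RNase it reversed Eef2 (1.03), Eif4a1 (1.13), Eif4a2 (0.97) and Eif4g2 (1.09) in IP_RNase_ProK, and Eef1b2 (0.94), Eif4a2 (1.01) and Eif4g2 (1.00) in mitoplast_RNase.

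Olfactory receptor scaling raised the wider count to 37 in IP_RNase and 20 in IP_RNase_ProK, and the mitochondrial count to 2 and 1, as the lower count of all genes rose from 1349 to 4475 and from 1334 to 1984. Of the mitochondrial list, DESeq2 and 2 groups only each gave 0 lower in IP_RNase, and leaving out a library gave 0 to 1 in IP_RNase and in mitoplast_RNase. With 2 groups only, 1 gene of the wider list passed between IP_RNase_ProK and IP_RNase. With 2 groups only, the counts of all genes differing among the bead-derived groups went from 37, 41 and 0 to 143, 115 and 11. With a library left out they ranged from 24 to 88, 25 to 78 and 0 to 2, and the counts of genes higher than in crude mitochondria from 145 to 506, 180 to 652 and 148 to 543. With non-mitochondrial counts as denominator the summed share of the 9 factors was 0.125% in crude mitochondria and 0.0433%, 0.0432% and 0.0437% in the bead-derived groups. The cause of these differences between scalings was not tested beyond the shift of the median gene given with each.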
